A study of Oryzias latipes with 6 samples.

Results

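Chaperones are proteins that fold, refold and take apart other proteins, and many of them were first found as heat shock proteins. The genes described here are those whose names mark them as HSP90, HSP70 or small heat shock proteins, J-domain co-chaperones (dnaj), subunits of the CCT ring or the mitochondrial chaperonin, or BAG exchange factors. The name rule took 83 of the 24365 genes in each table, in 8 role groups, and left out hspg2, which codes for the matrix protein perlecan. It also took hspbp1, hspbap1 and hspb11, which share the hspb letters but are not small heat shock proteins.

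The 6 brains came from adult male Japanese medaka (Oryzias latipes) of the F1 generation, aged 6 months. The 3 fish of the BaP lineage descended from parents exposed to benzo[a]pyrene (BaP), an aromatic hydrocarbon formed by combustion, at 1 µg/L over 21 days. The 3 fish of the control lineage descended from parents held for as long in solvent. The F1 fish grew up in clean water and were not exposed to BaP themselves, per the labels. The comparison asks how offspring of exposed and of unexposed parents differ within each cluster of brain nuclei.

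HSP70 proteins bind and release unfolded stretches of other proteins in a cycle driven by ATP. J-domain proteins bring clients to HSP70 and start that cycle, BAG proteins and HSP110-type proteins such as hspa4 restart it, and HSP90 takes over clients such as kinases and steroid receptors. In nerve terminals this machinery also serves the synaptic vesicle cycle: auxilin (DNAJC6) directs HSP70 to strip clathrin from endocytosed vesicles, and cysteine string protein alpha (DNAJC5) keeps release proteins of the vesicle folded.

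The data were 14 deposited tables, 1 for each cluster, numbered 0 to 13, with a log2 fold change, a mean level, a p-value and an adjusted p for every gene. They hold no value for a single fish, so no difference below carries an error across fish. Levels are given in CPM, counts scaled to a common total of UMIs (molecules counted once each), and were worked out for each lineage from the authors' deposited tables under assumptions stated with the processing. This arithmetic gave 5083 nuclei of the BaP lineage and 2429 of the control lineage, with 69 to 1754 nuclei per cluster and a mean of 684 to 1905 UMIs per nucleus. Intervals in brackets are 95% exact Poisson intervals of the counts and cover counting error only. They do not cover the unequal CPM sums of the lineages, which are given with the processing. Fold changes are BaP lineage over control lineage on a log2 scale, a sign read from the coding of groups in the tables' names, and a prior count seems to pull those of sparsely counted genes toward 0. Called genes are those with an adjusted p below 0.05 in the authors' deposited tables.

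Clusters are named by number, with the number of markers whose level was at least 2 times that of the remaining clusters on average. Cluster 1 had 6 of 7 GABAergic markers, cluster 0 had 3 of 7 and cluster 2 had 2 of 7. Cluster 3 had 5 of 6 glutamatergic markers, cluster 5 had 5 of 6 detected granule neuron markers and cluster 11 had 5 of 6 Purkinje markers. Cluster 6 had 8 of 8 oligodendrocyte markers, cluster 9 had 4 of 6 radial glia markers and cluster 12 had 4 of 5 detected progenitor markers of oligodendrocytes. Cluster 8 had 6 of 6 endothelial and 4 of 4 detected erythrocyte markers. The gene spi1b, also on the erythrocyte list, had no counts there and so did not mark these cells. Cluster 7 had 4 of 4 epithelial, 6 of 7 fibroblast and 4 of 4 muscle markers, and cluster 13 had 4 of 4 detected markers of plasma proteins, so both hold RNA that is not typical of neurons or glia. Cluster 10 had 2 of 6 glutamatergic and 2 of 5 detected granule neuron markers, and cluster 4 had fewer than 2 markers of each list.

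Most of the 83 genes were transcribed in the medaka brain at low or moderate levels. Some counts were found in at least 1 cluster for 80 genes, and in all 14 clusters for 35. Over the clusters, 11 genes averaged 100 CPM or more and 37 averaged 20 CPM or more. The genes hspe1, HSPA2 and hspb9l were listed at the floor in every cluster. Levels come from tags at the 3' end, so they can be set beside each other for 1 gene across clusters, while levels of different genes also reflect where each gene model ends.

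Lower levels in the BaP lineage were called for DNAJC6, dnajc5aa and hsp90aa1.2 in clusters 0, 1 and 2, and a higher level for hsp90ab1 in cluster 3. This makes 5 lower calls and 1 higher call, in 4 genes, while 10 clusters held no call of a chaperone gene. Of the 941 combinations of a chaperone gene and a cluster with any count, the lower calls are 0.531%, against 0.214% of all detected genes and clusters in the authors' deposited tables. The higher call is 0.106%, against 0.186% of all. By cluster, 2 chaperone genes were lower in cluster 0 (0.305% of all detected genes were lower there), 1 in cluster 1 (0.594%) and 2 in cluster 2 (0.771%), and 1 was higher in cluster 3 (0.442%). In the 10 clusters without a call, 0.0979% of all detected genes were called lower and 0.131% higher. With unadjusted p-values under 0.05 as the limit, chaperone genes had 30 lower and 8 higher values among 641 in those clusters, where 1.47% of all values were lower and 2.2% higher.

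Cytosolic HSP90 has a constitutive beta form and an alpha form that heat and other stress induce in many vertebrates, and medaka carry hsp90ab1 and hsp90aa1.2 for these. In cluster 2 the alpha gene hsp90aa1.2 was lower in the BaP lineage, at 117 CPM [95.5 to 142], against 223 CPM [187 to 262] in the control lineage. The intervals of the lineages do not overlap there. The log2 fold change in the authors' deposited table was -0.66, with an adjusted p of 0.000967.

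Outside cluster 2 the same gene passed the threshold in no cluster, yet it stood lower in the BaP lineage in most of them. Its log2 fold change was below 0 in 12 of the 14 clusters in the authors' deposited tables (0.335% of genes with counts in all clusters reach 12 or more), the exceptions being clusters 10 (0.17) and 11 (0.18), and its unadjusted p was under 0.05 on the lower side in 9. In the neuron-marker clusters it had 113 CPM in the BaP lineage and 190 CPM in the control lineage in cluster 0, 159 CPM (BaP) and 232 CPM (control) in cluster 1, and 45.0 CPM (BaP) and 154 CPM (control) in cluster 5. Cluster 3 gave 55.6 CPM [40.9 to 73.5] in the BaP lineage and 68.4 CPM [26.8 to 159] in the control lineage, intervals that overlap widely. Those in clusters 0, 1 and 5 do not overlap as given. The CPM sums there were lower in the BaP lineage, which narrows the gap on equal sums. In clusters 12 and 13, also below 0, about 3 counts (BaP) stood against 1 (control) in each.

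Clusters with glial and vascular markers had a gap of the same direction for hsp90aa1.2. It had 149 CPM [105 to 202] in BaP-lineage and 277 CPM [188 to 388] in control-lineage nuclei of cluster 6, and 84.9 CPM [54.0 to 125] in the BaP lineage against 219 CPM [138 to 333] in the control lineage in cluster 9. In cluster 8, where the gene was most abundant, it had 225 CPM [174 to 283] in the BaP lineage against 422 CPM [338 to 524] in the control lineage. The intervals overlap slightly in cluster 6 and not in clusters 8 and 9. The authors' deposited tables gave these 3 differences log2 values of -0.55, -0.75 and -0.70, each with an adjusted p of 1. Nearest to the threshold was cluster 4, with a log2 fold change of -0.72 and 0.0784 as the adjusted p in the authors' deposited table, from 74.4 CPM [52.2 to 101] in the BaP lineage and 185 CPM [128 to 258] in the control lineage.

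The beta gene hsp90ab1 gave the most tags of all chaperone genes in every cluster. Over both lineages it ran between 1307 CPM in cluster 11 and 2736 CPM in cluster 7. In cluster 3 it was called higher in the BaP lineage, at 1994 CPM [1900 to 2090], against 1219 CPM [992 to 1483] in the control lineage, where about 100 counts were behind the value. The authors' deposited table gave a log2 fold change of 0.67 and an adjusted p of 0.0312. This difference is close to that of other strongly expressed genes of the cluster, a comparison added after the data were seen. The median log2 fold change of the 264 nuclear-encoded genes at 500 CPM or more in the authors' deposited table of cluster 3 was 0.63, which leaves 0.04 for hsp90ab1. Relative to the median of all genes above the median level there (0.25), 0.42 is left.

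Elsewhere hsp90ab1 passed the threshold in no cluster. It had 2009 CPM in BaP-lineage and 2266 CPM in control-lineage nuclei of cluster 0, 2188 CPM (BaP) and 2570 CPM (control) in cluster 2, and 2410 CPM (BaP) and 3417 CPM (control) in cluster 7. These 3 clusters had the lower level in the BaP lineage, with log2 fold changes of -0.16, -0.23 and -0.49 and adjusted p-values of 0.670, 0.193 and 0.714 in the authors' deposited tables. In cluster 5 the lineages were almost equal, at 2607 CPM in the BaP lineage and 2601 CPM in the control lineage. Whether the change of hsp90ab1 in cluster 3 differs from that in other clusters was not tested, since the tables hold no common fit.

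The third HSP90, hsp90b1, codes for the form in the endoplasmic reticulum (Grp94), and was named after its values were seen. It was below 0 in 13 of the 14 clusters in the authors' deposited tables (0.158% of genes reach 13 or more), with 1 unadjusted p under 0.05, in cluster 1, where the log2 fold change was -0.37 and the adjusted p 0.323. There it had 70.9 CPM [59.0 to 84.6] in the BaP lineage and 112 CPM [85.5 to 144] in the control lineage. Some of its 13 signs rest on few counts, about 2 (BaP) and 1 (control) in cluster 12 and 3 (BaP) and 1 (control) in cluster 13. Taken as a group, the HSP90 genes had 13 lower and 1 higher value at an unadjusted p under 0.05 among 42. Of these lower values, 9 belonged to hsp90aa1.2. Of all detected genes and clusters, 1.92% were lower and 2.97% higher, with 3.24% and 5.82% among genes above the median level of their cluster.

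**Figure D1:**
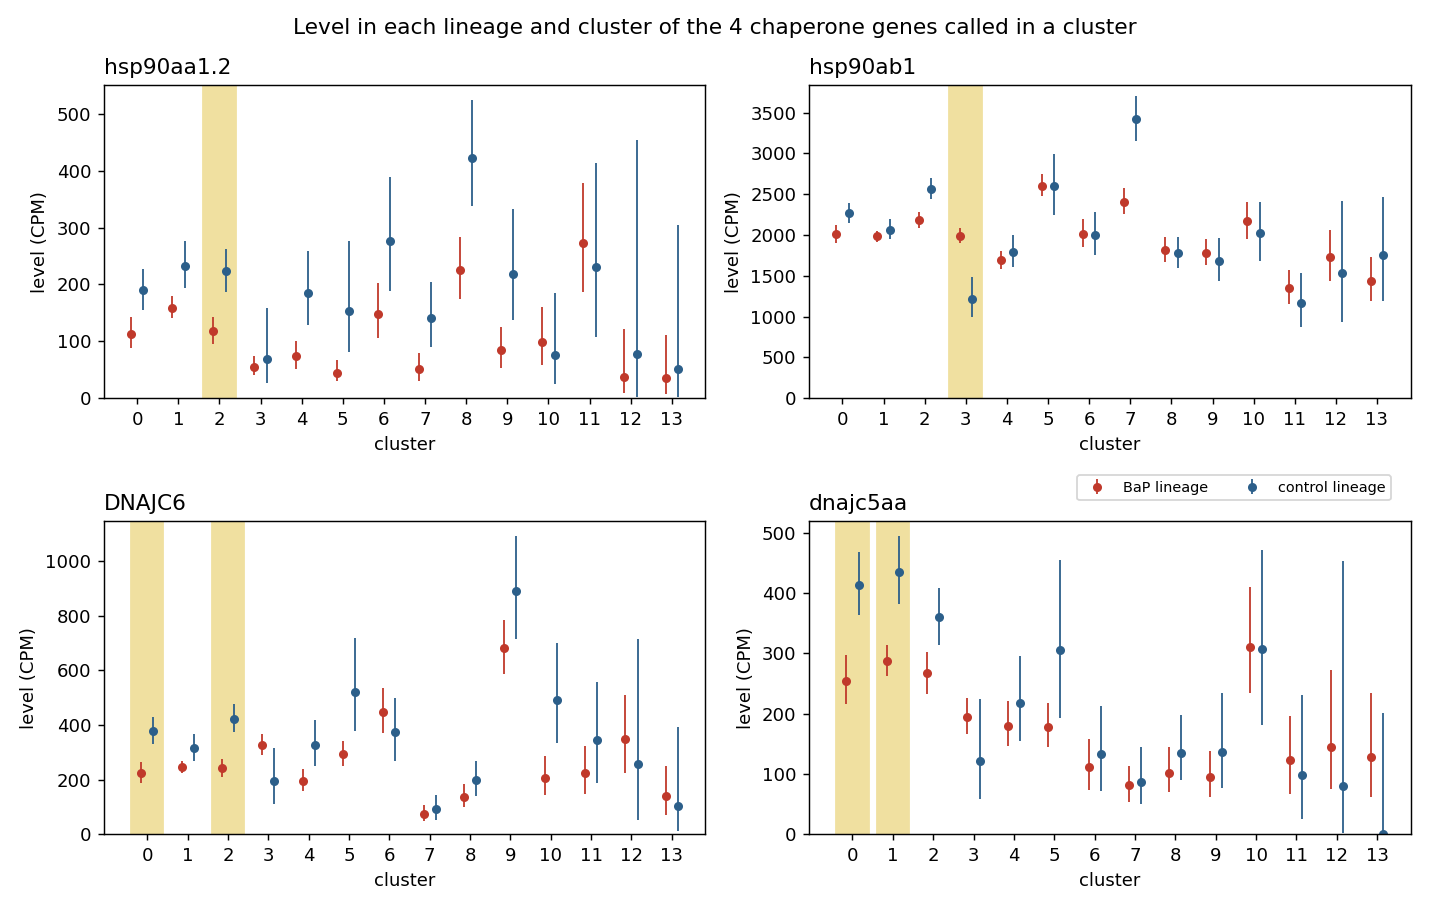
Level in CPM (vertical axes, linear, from 0) of hsp90aa1.2, hsp90ab1, DNAJC6 and dnajc5aa in each of the 14 clusters (horizontal axes), BaP lineage in red left of control lineage in blue, with bars for 95% Poisson intervals of the counts. Shaded clusters hold the calls: in cluster 2 hsp90aa1.2 was at 117 CPM in the BaP lineage and 223 CPM in the control lineage, while hsp90ab1 in cluster 3 was at 1994 CPM in the BaP lineage and 1219 CPM in the control lineage.

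Among the J-domain proteins, the 2 called genes were DNAJC6 and dnajc5aa, co-chaperones of the synaptic vesicle cycle. Of all detected genes, 0.305%, 0.594% and 0.771% were called lower in clusters 0, 1 and 2. These 2 genes also had the highest mean levels of class C, 297 and 187 CPM, and the most counts. Whether their calls reflect their function or their abundance was not tested. DNAJC6, auxilin, had 242 CPM [210 to 276] in the BaP lineage and 422 CPM [373 to 477] in the control lineage in cluster 2. In cluster 0 it had 226 CPM [189 to 266] in BaP-lineage and 377 CPM [329 to 429] in control-lineage nuclei. The intervals of the lineages stand apart in both clusters. The authors' deposited tables gave log2 fold changes of -0.67 (adjusted p 2.51e-05) in cluster 2 and -0.45 (adjusted p 0.00537) in cluster 0. The value in cluster 2 had the smallest adjusted p of all chaperone genes.

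In clusters 1, 4, 5 and 10 DNAJC6 had lower values in the BaP lineage with an unadjusted p under 0.05 that did not pass the threshold, and in cluster 3 a higher one. It had 246 CPM in the BaP lineage and 315 CPM in the control lineage in cluster 1, 196 CPM (BaP) and 326 CPM (control) in cluster 4, 293 CPM (BaP) and 522 CPM (control) in cluster 5, and 207 CPM (BaP) and 491 CPM (control) in cluster 10. The authors' deposited tables gave log2 fold changes of -0.29, -0.53, -0.66 and -0.96 for these, with adjusted p-values of 0.422, 0.339, 1 and 1. Cluster 3 had 326 CPM [289 to 366] in the BaP lineage against 194 CPM [112 to 317] in the control lineage, with overlapping intervals and 0.802 as the adjusted p in the authors' deposited table. Over all clusters, DNAJC6 was below 0 in 10 of 14. No test compared its difference in cluster 3 with that in cluster 2. Its log2 fold change in cluster 3 was 0.55, where all genes above the median level had a median of 0.25.

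The other called co-chaperone, dnajc5aa, is a medaka gene for cysteine string protein alpha. It was lower in the BaP lineage in cluster 1, with 288 CPM [263 to 314] against 436 CPM [382 to 495] in the control lineage. Cluster 0 had 255 CPM [216 to 298] in BaP-lineage and 414 CPM [363 to 469] in control-lineage nuclei. Neither pair of intervals overlaps. Log2 fold changes in the authors' deposited tables were -0.50 (adjusted p 0.00471) and -0.45 (adjusted p 0.00777). In cluster 2 the gene had 267 CPM in the BaP lineage and 360 CPM in the control lineage, which the authors' deposited table gives as -0.36 with an adjusted p of 0.372. It was below 0 in 9 of 14 clusters, and the levels in cluster 10 were 310 CPM in the BaP lineage and 308 CPM in the control lineage.

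These synaptic co-chaperones were distributed differently over the brain. Over both lineages, dnajc5aa was highest in clusters 0 (333 CPM), 1 (323 CPM) and 10 (310 CPM) and lowest in cluster 7 (82.9 CPM). DNAJC6 was highest in cluster 9, the cluster with radial glia markers, at 736 CPM, followed by cluster 6 with oligodendrocyte markers at 424 CPM, and was also lowest in cluster 7 (79.6 CPM). Counting intervals separate cluster 9 from cluster 6 for DNAJC6 in the BaP lineage (683 CPM [588 to 784] against 447 CPM [371 to 536]) as well as in the control lineage (889 CPM [714 to 1093] against 374 CPM [268 to 498]). In clusters 6 and 9 the lineages did not differ past the threshold, with log2 fold changes of 0.19 and -0.33 and adjusted p-values of 1 in the authors' deposited tables.

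The other 26 of the 28 class C J-domain proteins had no call. All 28 together had 15 lower and 5 higher values at an unadjusted p under 0.05 among 321. Of these lower values, 6 belonged to DNAJC6, 4 to dnajc5aa, 4 to dnajc7 and 1 to dnajc12. Of all detected genes and clusters, 1.92% were lower and 2.97% higher, with 3.24% and 5.82% among genes above the median level of their cluster. The gene model written dnajc7, whose human counterpart binds HSP70 and HSP90 together, was named after its values were seen. It had 75.5 CPM [55.3 to 101] in BaP-lineage and 138 CPM [110 to 172] in control-lineage nuclei of cluster 0, and 164 CPM [121 to 219] in the BaP lineage against 317 CPM [219 to 451] in the control lineage in cluster 9. Both clusters were lower in the BaP lineage in the authors' deposited tables (log2 -0.31 and -0.64), with adjusted p-values of 0.306 and 1. A separate gene model written DNAJC7 had no unadjusted p under 0.05 in any cluster, and how reads shared by such near-copies were counted is not given in the sources used here.

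DNAJC13, the endosomal J-domain protein RME-8, ran the other way and was also named after its values were seen. Its log2 fold change was above 0 in 14 of the 14 clusters in the authors' deposited tables, between 0.03 and 0.91, with no adjusted p under 0.922. The widest gaps rest on very few control counts: in cluster 8 it had 53.9 CPM [31.7 to 87.0] in the BaP lineage, against 2.70 CPM [0.128 to 28.1] in the control lineage from about 1 count. Of all genes detected in the 14 clusters, 0.237% were above 0 in every one.

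Classes A and B of the J-domain proteins, which hand unfolded clients to HSP70, held no call in 17 genes. Of all detected genes and clusters, 0.214% were called lower and 0.186% higher. At an unadjusted p under 0.05, class A had 1 lower and 2 higher values among 73. Class B had 3 lower and 1 higher among 122, against 1.92% lower and 2.97% higher of all detected genes and clusters. Class B was led by dnajb6b, whose human counterpart holds back aggregation of polyglutamine proteins, and by dnajb14, a protein of the endoplasmic reticulum membrane. Over both lineages dnajb6b ran from 12.5 CPM in cluster 12 to 510 CPM in cluster 6, followed by 375 CPM in cluster 13 and 207 CPM in cluster 4. In cluster 6 it had 552 CPM [464 to 648] in the BaP lineage and 415 CPM [304 to 547] in the control lineage, a log2 fold change of 0.32 with 1 as the adjusted p in the authors' deposited table. The level in cluster 6 was thus high in both lineages, and the lineages' intervals overlap. The gene dnajb14 was highest in cluster 9, at 62.1 CPM, and had no unadjusted p under 0.05.

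The canonical Hsp40 of vertebrates, DNAJB1, is represented by dnajb1a and dnajb1b, and dnajb1b was named after its values were seen. It was below 0 in 12 of the 14 clusters in the authors' deposited tables, with unadjusted p under 0.05 in 2. Cluster 8 held its highest level, 77.4 CPM [49.2 to 114] in the BaP lineage and 137 CPM [89.7 to 198] in the control lineage. In cluster 10 about 1 count of the BaP lineage stood against 8 of the control lineage, with 0.469 as the adjusted p in the authors' deposited table. Class A was led by DNAJA2, with 48.6 CPM in BaP-lineage and 21.5 CPM in control-lineage nuclei of cluster 1, a log2 fold change of 0.37 with 0.358 as the adjusted p in the authors' deposited table. The mitochondrial dnaja3b averaged 20.4 CPM over the clusters, and DNAJA4 stood at 67.6 CPM in cluster 8 against 15.9 CPM in cluster 6, its next highest.

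**Figure D2:**
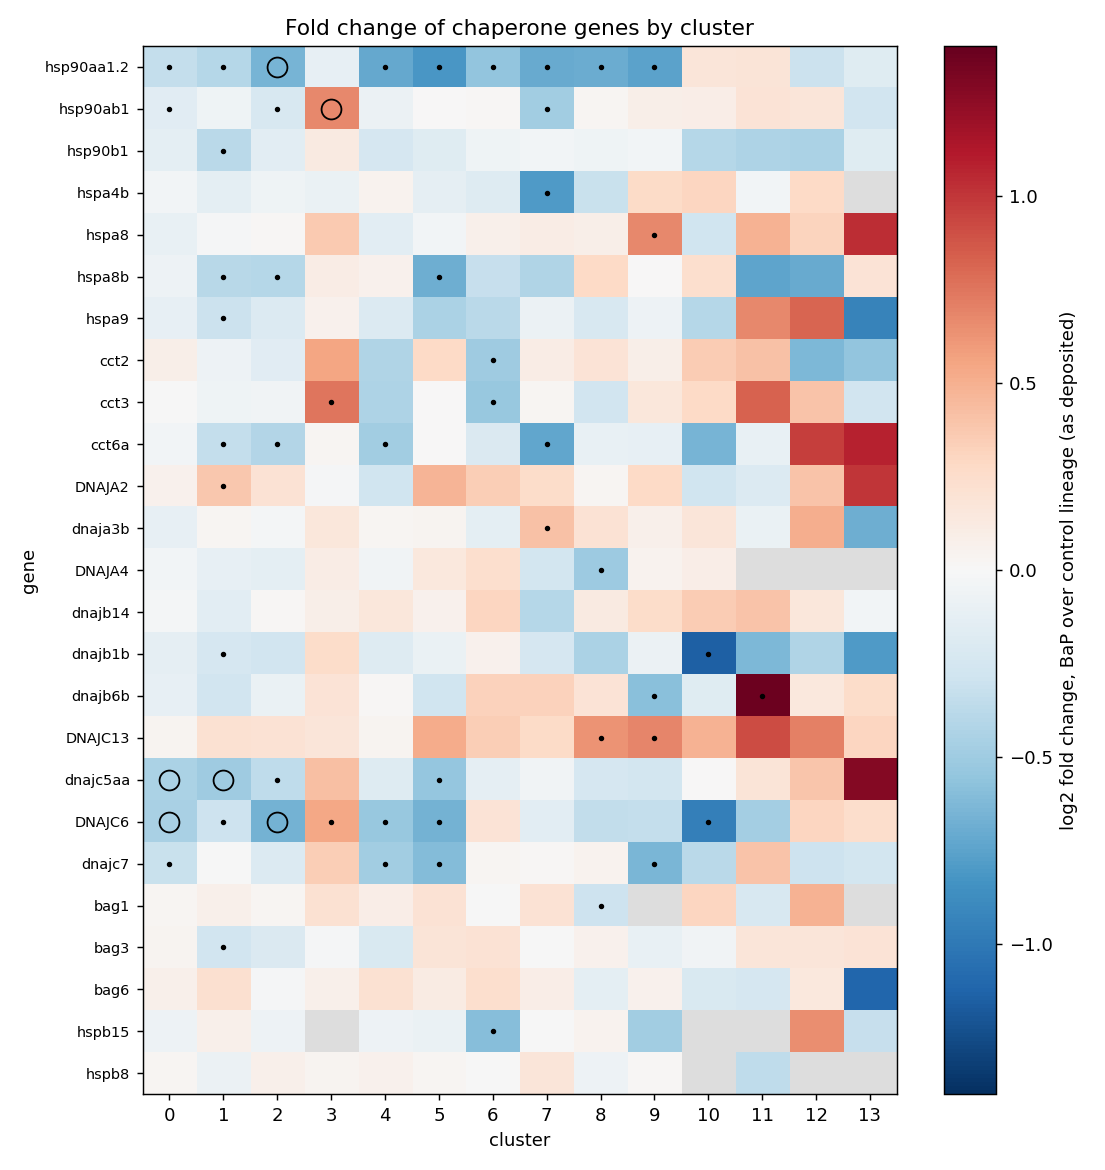
Log2 fold change, BaP over control lineage as in the authors' deposited tables (colour scale, blue lower and red higher in the BaP lineage), of named chaperone genes (rows) in the 14 clusters (columns). Rings mark the 6 calls at an adjusted p under 0.05, dots an unadjusted p under 0.05 and grey cells genes without counts; the row of hsp90aa1.2 is below 0 in 12 clusters and that of DNAJC13 above 0 in 14.

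None of the 13 HSP70 genes was called. The main form was hspa8, the constitutive HSP70 of the cytosol that auxilin recruits to clathrin coats. It was highest in clusters 13 (450 CPM), 8 (413 CPM) and 7 (380 CPM) and lowest in cluster 4 (157 CPM). In the clusters where DNAJC6 was called lower, hspa8 had 178 CPM [147 to 216] in the BaP lineage and 205 CPM [170 to 244] in the control lineage (cluster 0), and 192 CPM [164 to 223] in the BaP lineage against 190 CPM [157 to 226] in the control lineage (cluster 2). The intervals overlap in part in cluster 0 and almost fully in cluster 2, and the authors' deposited tables gave log2 fold changes of -0.10 and 0.01, both with an adjusted p of 1.

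The second cytosolic gene model, hspa8b, was far more restricted. It had 139 CPM in cluster 8 and 35.7 CPM or less elsewhere, down to 2.04 CPM in cluster 4. It had 28.5 CPM [21.2 to 37.7] in BaP-lineage and 59.0 CPM [40.1 to 82.8] in control-lineage nuclei of cluster 1, a log2 fold change of -0.39 in the authors' deposited table, with an adjusted p of 0.248. Stress-inducible hspa1b had about 5 counts over all 14 clusters, and hspa5, the BiP of the endoplasmic reticulum, reached 15.2 CPM at most.

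Mitochondrial hspa9 (mortalin) ran between 69.2 CPM in cluster 4 and 163 CPM in cluster 13. It was below 0 in 11 of the 14 clusters in the authors' deposited tables, with 1 unadjusted p under 0.05, in cluster 1 (log2 -0.31, adjusted p 0.669). The HSP110-type exchange factor hspa4b gave the value nearest to the threshold among all chaperone genes that did not pass it. In cluster 7 it had 13.1 CPM [4.32 to 31.0] in the BaP lineage, from about 5 counts, and 87.7 CPM [50.8 to 144] in the control lineage, from about 16. The authors' deposited table gave -0.79 with an adjusted p of 0.0783. In cluster 1, the best covered for this gene, it had 60.3 CPM in the BaP lineage and 72.9 CPM in the control lineage. At an unadjusted p under 0.05, the HSP70 genes had 8 lower and 2 higher values among 147. Of all detected genes and clusters, 1.92% were lower and 2.97% higher, with 3.24% and 5.82% among genes above the median level of their cluster.

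The chaperonins, which enclose folding proteins in a ring, also held no call. CCT, the cytosolic ring that folds actin and tubulin, is represented by 7 subunits here, and TCP1, its remaining kind of subunit, by a gene the name rule does not take. The most abundant were cct2, at 159 CPM in its highest cluster, and cct6a, at 179 CPM, while cct3 peaked at 117 CPM in cluster 8. Cluster 7 had the highest level of 5 of the 7 subunits (cct2, cct4, cct5, cct7 and cct8).

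In the authors' deposited tables, all 7 CCT subunits were below 0 in clusters 1 and 2, where 42.6% and 51.2% of all detected genes were. In cluster 4, 6 were below 0 (37.5% of all genes), and in cluster 3 none was (17.1% of all genes). The remaining clusters had 5 below 0 in clusters 7, 8 and 13, 4 in clusters 0, 6 and 12 (in cluster 12 of 6 with counts), 2 in clusters 5, 9 and 10, and 1 in cluster 11, with 28.2% to 49.9% of all genes below 0. Single values were mostly small. The lowest in cluster 2 was cct6a, at 73.3 CPM [56.6 to 93.9] in the BaP lineage and 119 CPM [93.7 to 149] in the control lineage, a log2 fold change of -0.41 with 0.395 as the adjusted p in the authors' deposited table. In cluster 7 cct6a had 87.9 CPM [60.4 to 123] in the BaP lineage against 203 CPM [145 to 283] in the control lineage, where the authors' deposited table gives -0.72 and an adjusted p of 1. The intervals of cct6a are separate in cluster 7 and touch in cluster 2. Beside these, cct3 in cluster 3 stood at 99.6 CPM in BaP-lineage nuclei and 21.6 CPM in control-lineage nuclei, where about 2 counts were behind it (adjusted p 0.595 in the authors' deposited table). The chaperonin genes together had 8 lower and 2 higher values at an unadjusted p under 0.05 among 109. Of all detected genes and clusters, 1.92% were lower and 2.97% higher, with 3.24% and 5.82% among genes above the median level of their cluster.

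In mitochondria, hspd1 codes for the Hsp60 ring and hspe1 for its lid, and RefSeq's gene order places them next to each other. Levels of hspd1 reached 50.7 CPM in cluster 6. Its neighbour hspe1 was listed at the floor in every cluster.

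Small heat shock proteins hold unfolded proteins until HSP70 takes over. Those of the medaka brain were sparse, and the most abundant ones peaked in clusters with glial or vascular markers. The gene hspb15 had 79.6 CPM in cluster 9 and 63.1 CPM in cluster 12, while none of its counts fell in cluster 3. The partner of BAG3 in clearing misfolded proteins, hspb8, was highest in clusters 8 (21.5 CPM) and 9 (19.4 CPM). Only 2 counts of hspb6 were found. In cluster 6, hspb15 had 7.90 CPM from about 2 counts in the BaP lineage and 77.8 CPM from about 9 in the control lineage, with 0.531 as the adjusted p in the authors' deposited table. Genes with the hspb letters had 1 lower and 0 higher values at an unadjusted p under 0.05 among 54. Of all detected genes and clusters, 1.92% were lower and 2.97% higher.

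The BAG exchange factors, which release clients from HSP70, had no call among 6 genes, and 2 lower and 0 higher values at an unadjusted p under 0.05 among 73, against 1.92% lower and 2.97% higher among all detected genes and clusters. The most abundant, bag6, which guards membrane proteins on their way through the cytosol, averaged 42.1 CPM. Next was bag3, a link to autophagy, at 22.5 CPM, with 20.2 CPM in BaP-lineage and 39.0 CPM in control-lineage nuclei of cluster 1 (log2 -0.27, adjusted p 0.701 in the authors' deposited table). The founding member bag1 had 42.2 CPM in cluster 12, from about 4 counts of the BaP lineage and 0 of the control lineage, and 31.3 CPM in cluster 10, from about 6 (BaP) and 1 (control), so these levels cannot be ordered at this depth.

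**Figure D3:**
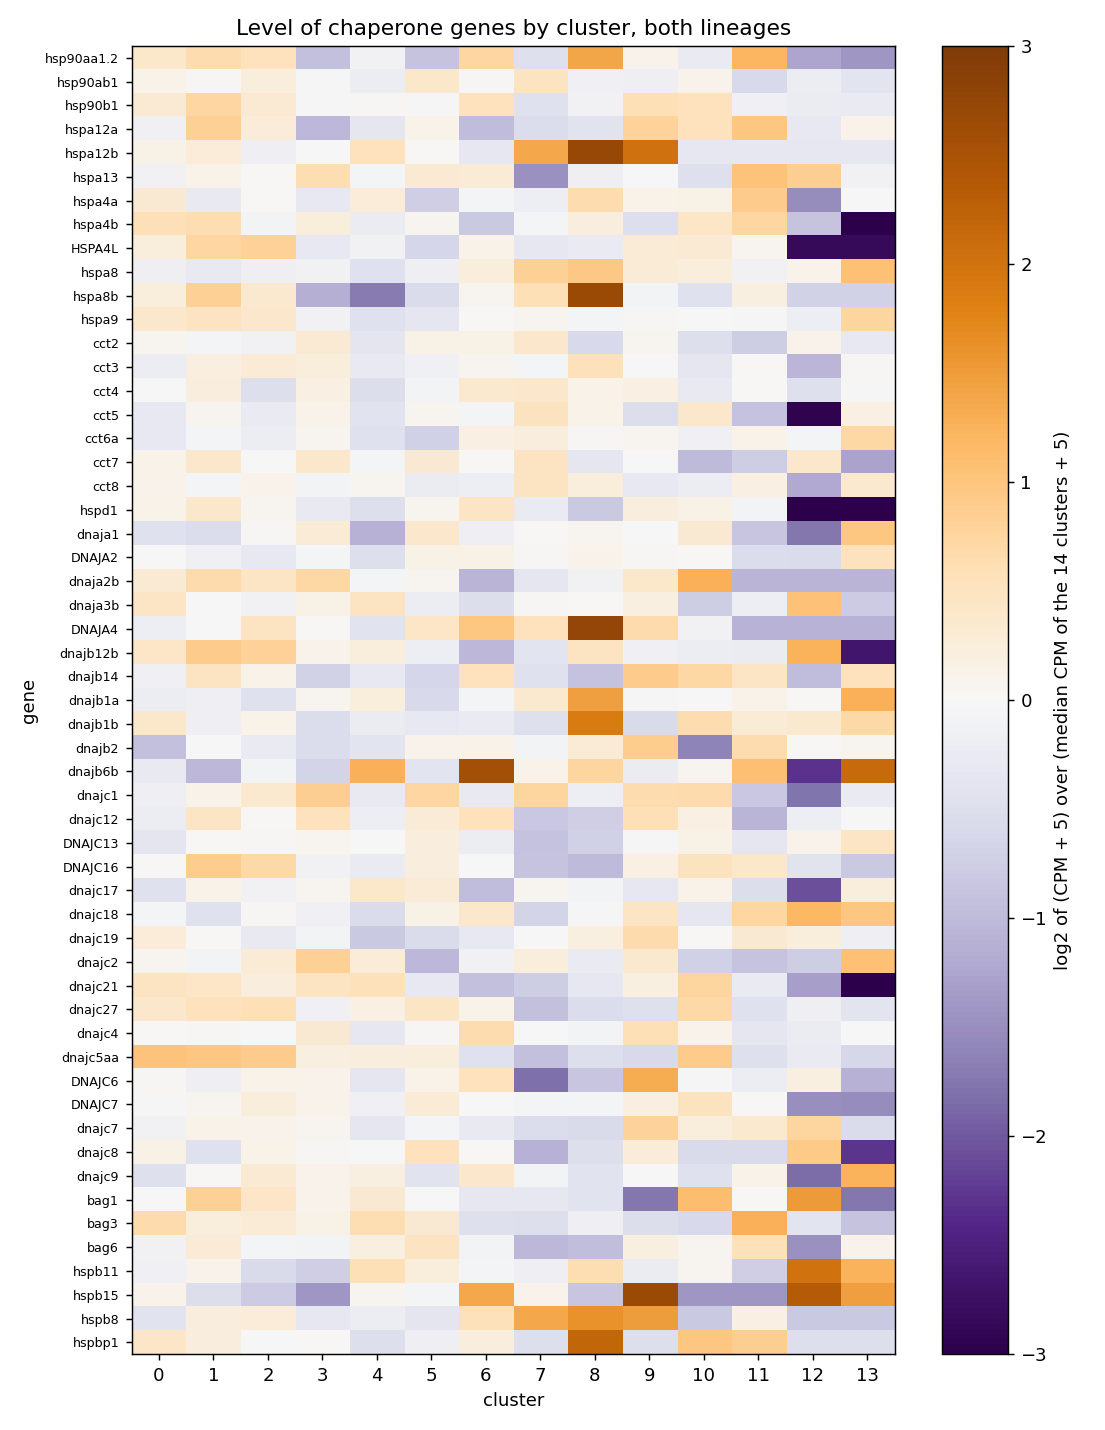
Level of each chaperone gene that reached 20 CPM in some cluster (rows), over both lineages, in the 14 clusters (columns), as log2 of CPM + 5 over the gene's median of the clusters + 5 (colour scale, orange above and purple below the median). Cluster 8 stands out for hspa8b (139 CPM), hspa12b, DNAJA4 and dnajb1b, cluster 6 for dnajb6b (510 CPM) and cluster 9 for DNAJC6 (736 CPM) and hspb15.

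By cluster, genes that reached 20 CPM somewhere had their highest level most often in clusters 8 (9 genes), 13 (8 genes) and 9 (7 genes). Cluster 8 was the peak of hsp90aa1.2, hspa8b, hspa12b, DNAJA4, dnajb1a, dnajb1b, cct3, hspb8 and hspbp1. These include some cytosolic HSP90, HSP70 and Hsp40 genes, while hspa8 peaked in cluster 13 and hsp90ab1 in cluster 7. The level of hsp90aa1.2 over both lineages was 301 CPM in cluster 8, followed by 262 CPM in cluster 11, against 38.6 CPM in cluster 13. Cluster 13 has 55 nuclei of the BaP lineage and 14 of the control lineage, so its peaks rest on few counts, as do those of other sparse genes in small clusters. Each value is a mean over the nuclei of a cluster, and fewer nuclei expressing a gene cannot be told apart from less RNA in each.

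How the median chaperone gene compares with the median gene depends on the measure. The chaperone genes' median log2 fold change in the authors' deposited tables was -0.03 in cluster 2, -0.02 in clusters 1 and 4, and 0.11 in cluster 3. All detected genes had medians of -0.01 in cluster 2, 0.01 in cluster 1, 0.03 in cluster 4 and 0.08 in cluster 3. Among genes above the median level of their cluster the medians were further apart in some clusters. Cluster 4 had -0.11 for chaperone genes and 0.07 for all genes, cluster 10 had -0.016 for chaperone genes and 0.14 for all, and cluster 13 had -0.052 for chaperone genes and 0.34 for all. Without the prior count, over the fewer genes with enough counts, the medians of chaperone genes were -0.17, -0.41, -0.53, -0.23 and -0.38 in clusters 1, 4, 5, 8 and 10, against 0.03, 0.05, -0.15, 0.06 and 0.04 for all genes. In clusters 6, 7 and 12 the median of all genes was the lower of the pair on that measure. Its limit of 3 or more counts per lineage keeps sparse genes mainly where the smaller control lineage is high. Cluster 5, for example, had 431 nuclei (BaP) and 60 (control). This pulls medians down, those of all genes too, so their being below 0 is no evidence of a difference. Below 0 stood 64.9% of the 77 detected chaperone genes in cluster 1, against 42.6% of all detected genes, and 12.3% of 73 in cluster 3, against 17.1%.

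Lower values were more frequent among chaperone genes than among all genes when p-values were left unadjusted, a description without a test. In the authors' deposited tables, 51 of the 941 values were lower and 13 higher in the BaP lineage at an unadjusted p under 0.05. As shares these are 5.42% and 1.38%, against 1.92% and 2.97% of all detected genes and clusters. Among genes above the median level of their cluster, 8.86% of 542 chaperone values were lower and 2.21% higher, against 3.24% and 5.82% of all. Without the 4 called genes, 3.28% of the 885 remaining values were lower. Among the 35 chaperone genes with counts in all 14 clusters, 3 (hsp90aa1.2, hsp90b1 and dnajb1b) were below 0 in 12 or more and 1 (DNAJC13) above 0 in 12 or more, against 0.335% and 2.88% of the 10140 genes with counts in all clusters. All clusters hold nuclei of the same 6 fish, so they are not independent repeats, and these shares are descriptions.

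**Figure D4:**
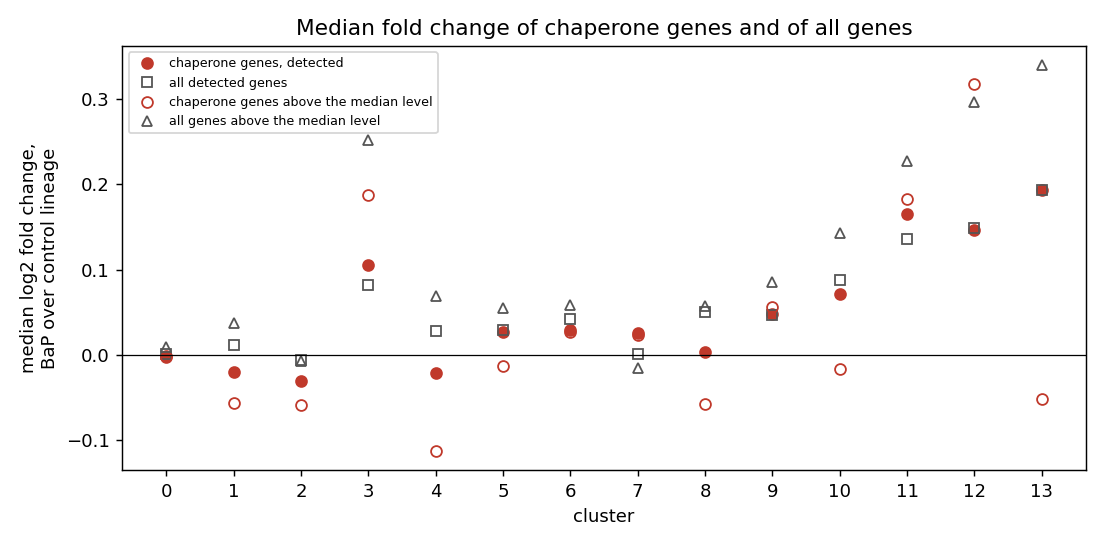
Median log2 fold change, BaP over control lineage (vertical axis), in each cluster (horizontal axis), of detected chaperone genes (filled circles) and all detected genes (squares), and of those above the median level of the cluster (open circles and triangles). Over detected genes, chaperone genes and all genes are at -0.03 and -0.01 in cluster 2 and 0.11 and 0.08 in cluster 3; above the median level they are at -0.11 and 0.07 in cluster 4 and -0.052 and 0.34 in cluster 13.

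The wider protein-folding machinery was described by a list of 52 other genes, from prefoldins and HSP90 co-chaperones to stress regulators. Of 662 detected values, 1 was called lower, where 0.214% of all detected genes and clusters were. Higher calls numbered 6, all of them of 1 gene, where 0.186% of all were higher. At an unadjusted p under 0.05, 17 values of this list were lower and 20 higher, against 1.92% lower and 2.97% higher of all. The lower call was HSF1, the transcription factor that turns on heat shock genes: in cluster 2 it had 184 CPM [156 to 215] in the BaP lineage and 286 CPM [246 to 331] in the control lineage (log2 -0.49, adjusted p 0.0434 in the authors' deposited table). In cluster 3 its level was 249 CPM [216 to 284] in the BaP lineage and 88.7 CPM [34.3 to 176] in the control lineage, with 0.229 as the adjusted p in the authors' deposited table. The intervals as given are separate in both clusters, in opposite directions. They do not allow for the CPM sums, which were lower in the BaP lineage in cluster 2 and higher in it in cluster 3. On equal sums both gaps would narrow. Whether the intervals would then stay separate was not tested, nor was the difference between the clusters. Cluster 3 leaned upward as a whole, with 17.1% of its detected genes below 0. Genes above its median level had a median log2 fold change of 0.25, against 0.91 for HSF1 in the authors' deposited table. All 6 higher calls were fkbp5, an HSP90 co-chaperone of steroid receptors, such as 1.70 (adjusted p 2.54e-11) in cluster 6 of the authors' deposited tables. In cluster 2, the cluster of the hsp90aa1.2 call, fkbp5 had 337 CPM in the BaP lineage and 216 CPM in the control lineage.

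Other measures differed between the lineages in the same clusters. RNA of the 13 mitochondrially encoded genes made up a smaller share in the BaP lineage in 14 of 14 clusters, with 18.9% against 26.1% in the control lineage in cluster 0, 8.30% (BaP) against 17.6% (control) in cluster 1, 9.99% (BaP) against 18.0% (control) in cluster 2 and 13.7% (BaP) against 28.2% (control) in cluster 3. Corrected for this share and without the prior count, the log2 fold changes of the lower calls were -1.06 for hsp90aa1.2 and -0.94 for DNAJC6 in cluster 2, -0.87 for DNAJC6 and -0.83 for dnajc5aa in cluster 0, and -0.75 for dnajc5aa in cluster 1. That of hsp90ab1 in cluster 3 was 0.44, which does not allow for the unequal CPM sums there. Without the correction or the prior count, the lower calls were -0.92, -0.81, -0.74, -0.70 and -0.60 in the same order. With a smaller mitochondrial share in the BaP lineage, this correction makes any lower value larger in size. It leaves out the CPM sums of the lineages, which were lower in the BaP lineage in clusters 0, 1 and 2. Dividing by the summed remaining genes would thus leave the lower calls smaller in size than the corrected values. Cluster 3 had the highest CPM sum of the BaP lineage and the lowest of the control lineage. The same division would thus leave hsp90ab1 below 0.44 there, so 0.44 is no support for the higher call.

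Of 7 genes listed as erythrocyte markers, 5 are in the tables, led by the globin hbbe2. Their summed level was lower in the BaP lineage in 10 of 14 clusters. Sums were 670 CPM in the BaP lineage against 1426 CPM in the control lineage in cluster 0, 423 CPM (BaP) against 818 CPM (control) in cluster 1, and 1124 CPM (BaP) against 1838 CPM (control) in cluster 2. In cluster 8 they were 54525 CPM in the BaP lineage and 45951 CPM in the control lineage. The listed gene spi1b was at 0 in cluster 8, as in clusters 1 and 2, so it did not mark erythrocytes here. It added 7.05 CPM at most to a sum, in the control lineage of cluster 7. The marker sums were 776, 1630 and 721 CPM (BaP) against 989, 5549 and 938 CPM (control) in clusters 4, 7 and 9. They were 975, 1488 and 900 CPM (BaP) against 980, 1012 and 384 CPM (control) in clusters 5, 6 and 11. Oligodendrocyte markers summed to 335 CPM in the BaP lineage and 485 CPM in the control lineage in cluster 0, 303 CPM (BaP) and 414 CPM (control) in cluster 1, and 363 CPM (BaP) and 672 CPM (control) in cluster 2. The part of these differences in the calls was not tested. Nuclei, not fish, seem to be the replicates behind the deposited p-values, which then do not measure the spread between the 3 fish of a lineage.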

How the data were processed

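Per the labels' protocols, nuclei from 6 frozen whole brains, 3 per lineage, gave 10x Chromium 3' libraries in 1 sequencing batch. Cell Ranger is named, with no version, in the submitters' processing notes. The series design text says that the libraries were aggregated and the lineages compared within clusters. The sources used here give neither the test nor how nuclei were clustered and filtered or how doublets and free RNA were handled. Per the file headers, the authors deposited log2 fold changes, log2 mean CPM levels, p-values and adjusted p-values for 24365 genes in each of 14 clusters. Adjusting the deposited p-values by Benjamini-Hochberg over every gene of a table returned the deposited adjusted ones. No gene was tested again, and depth per fish is unknown.

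Nuclei, counts and CPM per lineage were worked out from the deposited log2 values and p-values, assuming a negative-binomial exact test on nuclei with prior counts of 2 (levels) and 0.125 (fold changes), which no source states. These levels are approximate: they summed to 1019000 to 1154000 CPM in the BaP lineage and 890400 to 1245000 CPM in the control lineage. Cluster 3 held both the highest sum of the BaP lineage (1154000 CPM) and the lowest of the control lineage (890400 CPM). CPM pairs of cluster 3 thus lean toward the BaP lineage for every gene, which their Poisson intervals do not cover. In tables simulated after clusters 2, 3, 6 and 13 (24365 genes each) under the same assumptions, nuclei of both lineages were recovered exactly. That recovery was built in, since the simulated p-values followed the rule by which nuclei are read back. It checks the arithmetic and not the numbers of nuclei given above. Fold changes without the prior count had the simulated direction for 189 of 196, 116 of 128, 136 of 145 and 49 of 58 changed genes. Their median errors against the simulated counts were 0.012, 0.024, 0.016 and 0.030.

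The chaperone genes and all lists were chosen with earlier results of these data known. Named genes are the called ones, the 2 most abundant and the most variable of each role group (at 20 CPM or more), the 5 values nearest to the threshold and the called genes of the other list. Any other gene named was chosen after its values were seen. Symbols come from the tables, and 55 of 83 have an entry in RefSeq's gene table (assembly ASM223467v1, another build than the authors', so no coordinates are given). Promoter and protein motifs were not analysed here. Alternatives varied the threshold, adjustment, filters, prior count and scale. Calculations used Python 3.11 with numpy 2.4.6, pandas 2.3.3, scipy 1.17.1 and matplotlib 3.10.9.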

Additional observations from a re-analysis of the deposited data

How the results depend on the processing

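At an adjusted p under 0.1, or adjusted over genes above the median level, 7 lower calls of chaperone genes were made, with hspa4b in cluster 7 and hsp90aa1.2 in cluster 4 added. At 0.01, over detected genes only, and without the clusters under 100 nuclei in the smaller lineage, 5 were made. Requiring a log2 fold change past 1 in either direction left 0, and a Bonferroni adjustment left 1, DNAJC6 in cluster 2. The single higher call (hsp90ab1 in cluster 3) was lost (0 calls) at 0.01, with the fold limit, with Bonferroni and without the small clusters. The lower call of the other list became 2 at 0.1 and over genes above the median level, where tcp1 in cluster 7 joined HSF1, and 0 at 0.01, with the fold limit and with Bonferroni. The cause of these changes was not tested, apart from the stricter limits themselves.

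Medians of the chaperone genes changed when genes with few counts were left out together with the prior count. Without it, over genes with 3 or more counts per lineage, they were -0.17, -0.16, 0.39, -0.41 and -0.53 in clusters 1 to 5, -0.15, -0.23, -0.095, -0.38, -0.018, -0.14 and -0.28 in clusters 7 to 13, over 4 to 55 genes. For all genes the same measure was 0.03, -0.05, 0.50, 0.05 and -0.15 in clusters 1 to 5, and -0.25, 0.063, -0.015, 0.043, 0.11, -0.24 and -0.21 in clusters 7 to 13. The sign of the chaperone genes' median thus turned in clusters 5 and 7 to 13. This measure kept 22 of the 72 detected chaperone genes in cluster 5, 19 of 62 in cluster 10 and 4 of 49 in cluster 12. The part of the smaller set of genes was not separated from that of the prior count. Where the control lineage had fewer nuclei, the limit on counts favours genes high in that lineage and pulls medians down. Above the median level, medians were 0.32 in cluster 12 and -0.052 in cluster 13, and the mean in cluster 13 was 0.074. Scales relative to other genes were chosen after seeing the data, and the 6 calls kept their sign on them. For the lower calls, correcting for the mitochondrial share could not have changed the sign. Nor could taking off the median of nuclear-encoded genes at 500 CPM or more, which was above 0 in clusters 0, 1 and 2 (0.05, 0.12 and 0.07). In cluster 3 that median was 0.63, close to the 0.67 of hsp90ab1, so its kept sign there is no support for the call.

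No paired analysis was possible because the tables hold no values per fish. For the same reason leaving out single fish was not run. Depth limits genes under about 20 CPM, where a lineage often had under 3 counts in a small cluster.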
